A study of Mus musculus with 4 samples.

Results

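The genes described here were 9 genes that mark neurons of the developing forebrain: Emx1, Emx2, Tbr1, Neurod2, Neurog2, Dlx1, Dlx2, Gad1 and Slc32a1. They were measured not in brain but in whole fetal liver, on 4 one-color Agilent mouse arrays, and they accounted for 9 of the 22911 gene symbols and 10 of the 56605 probes on the array. The list was proposed with results of the same diet comparison in view, so its members count as chosen by their levels on these 4 arrays and by their differences between the diets, and those differences are given as a description with no test. The livers came from E14.5 fetuses of C57BL/6J dams. The CD group (2 arrays) came from dams fed a control diet during gestation, with 4.3% of kcal from fat, 19.2% from protein and 67.3% from carbohydrate. The HFD group (2 arrays) came from dams fed a high-fat diet, with 60% of kcal from fat, 20% from protein and 20% from carbohydrate. The labels give female as the sex for all 4 arrays, without saying whether fetus or dam is meant, and no transgene or allele is named. How many fetuses or litters stand behind each array was not given in the sources used here. The labels call the 2 arrays of a group biological replicates.

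The forebrain makes its neurons from 2 regions. In the dorsal part, or pallium, progenitors carry the homeodomain factors Emx1 and Emx2, the proneural factor Neurog2 starts neurogenesis, and the young glutamatergic neurons turn on Neurod2 and then Tbr1. In the ventral part, or subpallium, the homeodomain factors Dlx1 and Dlx2 specify neurons that use GABA, which is made by the glutamate decarboxylase Gad1 and loaded into vesicles by the transporter Slc32a1. Liver is no site of neurogenesis, and several of these genes also act elsewhere in the embryo: Emx2 is needed to build the kidneys and gonads, and Dlx1 and Dlx2 pattern the facial mesenchyme.

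The 250 bases before the RefSeq start sites of 3 of the genes (assembly GRCm38.p6) are printed because these genes show the range of the comparison: Tbr1 and Neurod2 were lower in HFD and passed the cutoffs whichever array was left out, and Emx2 ran the other way. Each sequence runs 5′ to 3′ on the gene's own strand and ends at the base before the start site, and capitals mark the motifs searched for on both strands.
Tbr1, chr2:61804203-61804452, plus strand: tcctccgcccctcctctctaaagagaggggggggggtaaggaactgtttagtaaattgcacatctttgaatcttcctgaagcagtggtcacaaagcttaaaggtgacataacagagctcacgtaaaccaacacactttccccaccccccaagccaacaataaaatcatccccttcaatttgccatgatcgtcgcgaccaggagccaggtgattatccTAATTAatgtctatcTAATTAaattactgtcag
Neurod2, chr11:98329646-98329895, minus strand: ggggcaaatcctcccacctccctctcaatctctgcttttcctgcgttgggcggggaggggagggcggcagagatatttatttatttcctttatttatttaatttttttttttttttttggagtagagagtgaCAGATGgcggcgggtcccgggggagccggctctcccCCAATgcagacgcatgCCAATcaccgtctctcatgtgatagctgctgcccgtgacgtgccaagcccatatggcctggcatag
Emx2, chr19:59458440-59458689, plus strand: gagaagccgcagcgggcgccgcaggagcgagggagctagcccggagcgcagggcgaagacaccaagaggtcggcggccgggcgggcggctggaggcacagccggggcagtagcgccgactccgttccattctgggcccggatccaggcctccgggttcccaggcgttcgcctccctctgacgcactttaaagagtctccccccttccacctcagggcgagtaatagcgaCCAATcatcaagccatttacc
The motifs were TAATTA, a core that homeodomain factors bind, the E-boxes CAGATG and CAGCTG, of a kind that proneural factors bind, and CCAAT, the CCAAT box. No 2 matches overlapped. The Tbr1 window held TAATTA at positions -33 to -28 and -18 to -13 before the start, a motif that 4.84% of 32851 RefSeq windows of the same length held. The Neurod2 window held CAGATG at -118 to -113, which 14.4% of all windows held, and CCAAT at -82 to -78 and -66 to -62, which 33.8% held. The Emx2 window held CCAAT at -21 to -17. Among the other members only the Dlx2 window held any of these motifs, a CCAAT box at -74 to -70 on the other strand, and CAGCTG, held by 13% of all windows, was in none of the 9. The windows also differed in base composition: G and C made up 45.2% of the Tbr1 window, 52.8% of that of Neurod2 and 67.2% of that of Emx2, against a median of 52.4% over all windows. A match is a run of letters and does not show that a factor binds there.

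Levels are given as log2 intensity minus the 75th percentile of the array's probes, so that 0 is the level of that percentile and a step of 1 is a 2-fold difference. The intensity at that percentile ranged from 704 (CD replicate 2) to 1073 (CD replicate 1), and no spot was saturated. A probe was called detected where the scanner software flagged it well above background. All 16 hepatoblast and all 14 erythroid genes were detected on every array, and none of either list passed the cutoffs for a difference between diets. Albumin and alpha-fetoprotein had mean levels of 8.60 and 8.57 under CD and 8.54 and 8.56 under HFD. Detection alone does not single out liver, since all 24 genes of a pan-neuronal list were detected on every array too. Over the 41614 probes tested, which leaves out the dimmest, the SD of the log2 differences was 0.60 between the CD arrays. It was 0.37 between the HFD arrays and 0.44 to 0.54 between arrays of different diets. With 2 arrays against 2, no permutation test can give a p under 0.333, and the number of arrays limits the precision of every value.

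Most of the forebrain genes were detected in these livers, and fewer of them under HFD. Of the 9 genes, 7 were detected on CD replicate 1, 8 on CD replicate 2 and 5 on each HFD array, while the share of all probes detected was 68.6%, 63.7%, 66.7% and 65.5%. Emx2, Neurod2, Dlx1, Dlx2 and Slc32a1 were detected on all 4 arrays. Tbr1 and Gad1 were detected on both CD arrays and on neither HFD array, Neurog2 on CD replicate 2 alone, and Emx1 on none. In a bulk sample such as this, fewer cells of a type and less RNA per cell cannot be told apart.

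**Figure D1:**
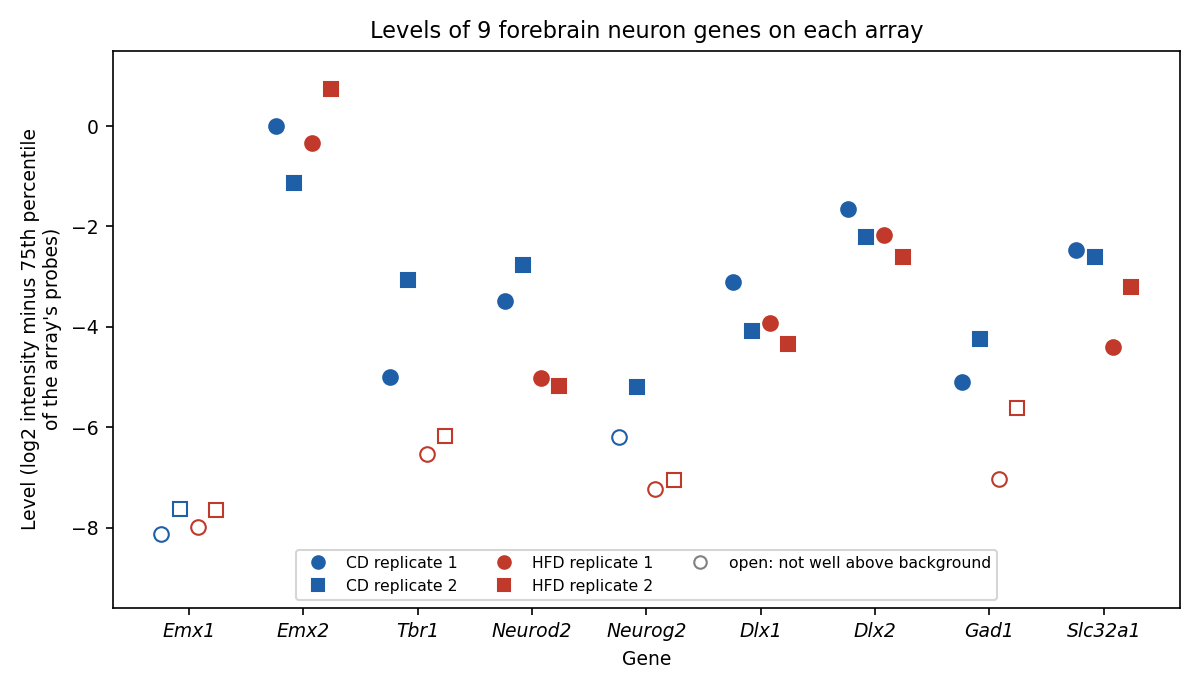
Level of each gene (log2 intensity minus the 75th percentile of the array's probes) on each of the 4 arrays, from its brightest probe. Blue marks CD, red HFD, circles replicate 1, squares replicate 2, and open symbols mark probes not well above background. For Tbr1, Neurod2, Neurog2, Gad1 and Slc32a1 both HFD arrays lie below both CD arrays.

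Of the 9 genes, 8 could be tested in the fit across all probes, and Emx1 was left out for lying under the 20th percentile of the arrays. The brightest probes of 5, namely Tbr1, Neurod2, Neurog2, Gad1 and Slc32a1, passed for lower in HFD at the p and fold of the study's cutoffs (0.05 unadjusted and 2-fold), tested here with limma, which 0.583% of the 18344 genes tested passed. None passed them for higher in HFD, where the share of all genes was 0.283%. The same 5 genes had both HFD arrays below both CD arrays, as 10.2% of all genes tested did, and none had both HFD arrays above, as 22.9% did. Because the genes were listed with this comparison known, nothing can be read from their counts against these shares. The median difference over the 9 genes was -1.27 on the log2 scale, and the median over all genes tested was 0.04. The members' median was -0.77 with undetected HFD levels raised to their array's lowest detected level where they lay below it. Emx1, detected on no array, was left as measured, as was Neurog2 in CD. That median is the value of Neurog2, which was at background on CD replicate 1 as well. After Benjamini-Hochberg adjustment over all 41614 probes tested, no probe of any gene passed an adjusted p of 0.05 in limma. At an unadjusted p of 0.05, 1371 did.

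The pallial genes are taken first, in the order in which development uses them. Emx1, the homeodomain factor of cortical progenitors, had levels of -8.14 and -7.63 under CD and -7.98 and -7.66 under HFD, with intensities of 3.55 to 4.50. No array had it well above background, and no fold is given.

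Emx2, which marks pallial progenitors and also the urogenital ridge, had a level of 0.01 on CD replicate 1, -1.13 on CD replicate 2, -0.34 on HFD replicate 1 and 0.74 on HFD replicate 2. CD replicate 2 was the lowest and HFD replicate 2 the highest, and the groups overlapped. The means were -0.56 ± 0.81 (SD, n = 2) for CD and 0.20 ± 0.76 for HFD, a difference of 0.76 on the log2 scale (1.70-fold) that was smaller than the spread within either group, with 1.14 between the CD arrays and 1.08 between the HFD arrays. Emx2 was the only detected member with a higher mean under HFD.

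Neurog2, the proneural factor of pallial progenitors, had levels of -6.19 and -5.19 under CD and of -7.24 and -7.05 under HFD. Intensities were low, 14.6 and 19.2 under CD against 6.43 and 6.84 under HFD, and only CD replicate 2 was well above background. Both HFD arrays lay below both CD arrays. The means were -5.69 ± 0.71 for CD and -7.14 ± 0.13 for HFD, and no bound on the fold is given, since CD replicate 1 was at background as well.

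Neurod2, a factor of differentiating neurons, had levels of -3.49 and -2.76 under CD and of -5.02 and -5.19 under HFD, with intensities of 95.6 and 104 against 29.8 and 24.9. It was detected on every array, and the groups were well separated: the arrays of a group differed by 0.73 (CD) and 0.16 (HFD), and the means, -3.12 ± 0.51 and -5.11 ± 0.12, by -1.98 on the log2 scale (3.95-fold). The difference stayed between -1.62 and -2.34 with any 1 array left out.

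Tbr1, the T-box factor of young glutamatergic neurons of the cortex, had a level of -5.01 on CD replicate 1 and -3.07 on CD replicate 2, against -6.54 and -6.17 on the HFD arrays. Its intensity was 33.3 and 84.1 under CD and 10.4 and 12.6 under HFD. CD replicate 2 stood 1.94 above CD replicate 1, and both HFD arrays were below both CD arrays and at background. The means were -4.04 ± 1.37 for CD and -6.35 ± 0.26 for HFD. By the approximate bound used here, Tbr1 was 4.23-fold lower in HFD. The second Tbr1 probe was not well above background on any array (levels of -8.14, -7.63, -7.98 and -7.77) and gave no measure of the gene.

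In the subpallial group the groups overlapped for both transcription factors and not for the 2 genes of the GABA phenotype, a contrast that was not tested. Dlx1, a homeodomain factor of ventral progenitors, had levels of -3.12 and -4.08 under CD and -3.93 and -4.34 under HFD. HFD replicate 1 lay between the CD arrays, and the means, -3.60 ± 0.68 and -4.13 ± 0.29, differed by -0.53 on the log2 scale (1.45-fold lower in HFD), less than the 0.97 between the CD arrays. Dlx2, its neighbor on chromosome 2, had levels of -1.66 and -2.22 under CD and -2.17 and -2.61 under HFD. The groups overlapped here too, and the means of -1.94 ± 0.39 and -2.39 ± 0.31 differed by -0.45 (1.37-fold lower in HFD). Both Dlx genes were highest on CD replicate 1 and lowest on HFD replicate 2.

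Gad1, the enzyme that makes GABA, had levels of -5.10 and -4.25 under CD and -7.03 and -5.61 under HFD, with intensities of 31.2 and 37.0 against 7.41 and 18.6. Both HFD arrays were at background and below both CD arrays, though they differed by 1.42 from each other. The means were -4.68 ± 0.60 and -6.32 ± 1.00. No bound on the fold is given, since both HFD levels, though not well above background, lay above their arrays' lowest detected levels. Slc32a1, the vesicular GABA transporter, had levels of -2.46 and -2.60 under CD and -4.41 and -3.20 under HFD. It was detected on all 4 arrays, the CD arrays were close together, and both HFD arrays were below them. Its means were -2.53 ± 0.10 and -3.80 ± 0.86, a difference of -1.27 on the log2 scale (2.42-fold lower in HFD).

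**Figure D2:**
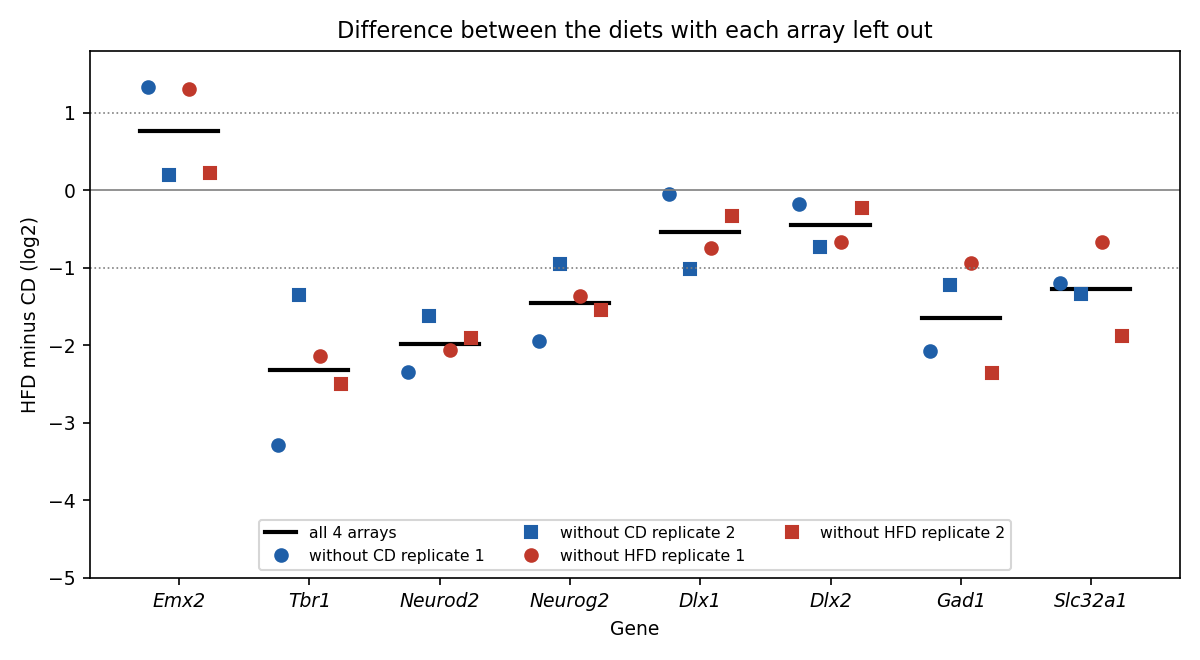
Difference between the diets (HFD minus CD, log2) for the 8 detected genes with all 4 arrays (black bar) and with each array left out in turn (symbols), dotted lines marking 2-fold. Neurod2 stays between -1.62 and -2.34 and Slc32a1 ranges from -0.67 to -1.88, while the symbols of Tbr1, Neurog2 and Gad1 are differences of measured levels with HFD at background and are not fold changes.

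The members that passed the cutoffs depended on the test, on single arrays and on how low intensities were treated. With the methods' t-test at the same cutoffs only Neurod2 passed, and without the assumption of equal variances none did. A filter on probes well above background on both arrays of a group left Neurog2 untested. Tbr1 and Neurod2 passed whichever array was left out, whereas Gad1 and Slc32a1 did not pass without CD replicate 1, CD replicate 2 or HFD replicate 1, Neurog2 did not pass without CD replicate 2, and Dlx1 passed only then. The difference of Slc32a1 was -0.67 without HFD replicate 1. Differences of measured levels, in which HFD stands at background, were -1.35 for Tbr1 without CD replicate 2 and -3.29 without CD replicate 1, and -0.94 for Gad1 without HFD replicate 1. With normexp background correction, which adds an offset of 50 to intensities, no member passed and the differences shrank to -0.68 for Tbr1 and -0.93 for Neurod2. With a floor at 0.02 of the 75th percentile, Neurod2 alone passed.

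Other genes of the forebrain program, not among the 9, were read next. Which cells in these livers carried their RNA was not tested. The lists used from here on were drawn up with earlier results of these data known. Nothing is therefore read from their counts against the shares of all genes. Of 20 other pallial genes, 19 were measured and 14 tested, and none passed the cutoffs in either direction, with a median difference of -0.15. Neurod6, a factor of the same family as Neurod2, had levels of -5.61 and -4.09 under CD and -8.06 and -7.86 under HFD. It was at background on both HFD arrays, was filtered out as too low for the test, and was 3.42-fold lower in HFD by the approximate bound. Pax6, a factor of pallial progenitors, differed by -0.75, at mean levels of -5.02 under CD and -5.77 under HFD. Lhx2, another, was far brighter, at 1.00 and 1.09, and differed by 0.09. Neurod6, Pax6 and Lhx2 were picked after their values were seen.

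Of 20 other subpallial genes 13 were tested, and 2 passed for lower in HFD, as 0.583% of all genes tested did. The list median was -0.37. Nkx2-1, which specifies the ventralmost forebrain and also lung and thyroid, had levels of -5.08 and -3.63 under CD against -7.03 and -6.65 under HFD. It was not detected under HFD, where it was 4.03-fold lower by the approximate bound. Zic1, a zinc finger factor of the neural tube, had levels of -0.32 and -1.15 under CD and -3.65 and -1.75 under HFD. It differed by -1.96 and was detected on every array, but its HFD arrays lay far apart. Gad2, the second glutamate decarboxylase, was too low for the test, with levels of -4.62 and -5.97 under CD and -7.24 and -7.84 under HFD. It was detected only on CD replicate 1, so no bound is given, and it was likewise picked after its values were seen.

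All 24 pan-neuronal genes, which neurons of every kind share, were detected on all 4 arrays, and the median difference was -0.61. Of them 13 had both HFD arrays below both CD arrays, as 10.2% of all genes tested did, and none had both above, as 22.9% did. Past the cutoffs for lower in HFD were 4 genes, against 0.583% of all genes tested. The 4 that passed the cutoffs were the transcription factor gene Myt1l (-1.64), the synaptic vesicle gene Syn1 (-1.30), the neurofilament gene Ina (-1.19) and Mapt, which encodes the microtubule protein tau (-1.12). Stmn2, a gene of growing axons, differed by -0.43, Gap43, another, by -0.31 and Dpysl3, a gene of axon guidance, by -0.02, and none of these 3 brightest genes of the list passed.

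Among the other neural lists, 17 peripheral autonomic and sensory neuron genes gave no call and a median of -0.27. Of 16 tested progenitor and glial genes none passed (median over the list, -0.28). Of 16 tested midbrain, hindbrain and spinal cord genes only Otx2, a head patterning factor, passed (median, -0.16). Otx2 differed by -2.05 in measured levels and was not detected on HFD replicate 2. Of 15 tested genes for GABA and glutamate handling, 2 passed for lower and none for higher, and the list median was -0.41. Over all 7 neural lists together, 9 of 114 tested genes passed for lower in HFD and none for higher, against 0.583% and 0.283% of all genes tested. Both HFD arrays lay below both CD arrays for 37, as for 10.2% of all genes tested. Normexp correction gave 3 such calls in place of 9 and the floor 4, and leaving out 1 array moved the count to between 3 (without CD replicate 1) and 24 (without HFD replicate 2).

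**Figure D3:**
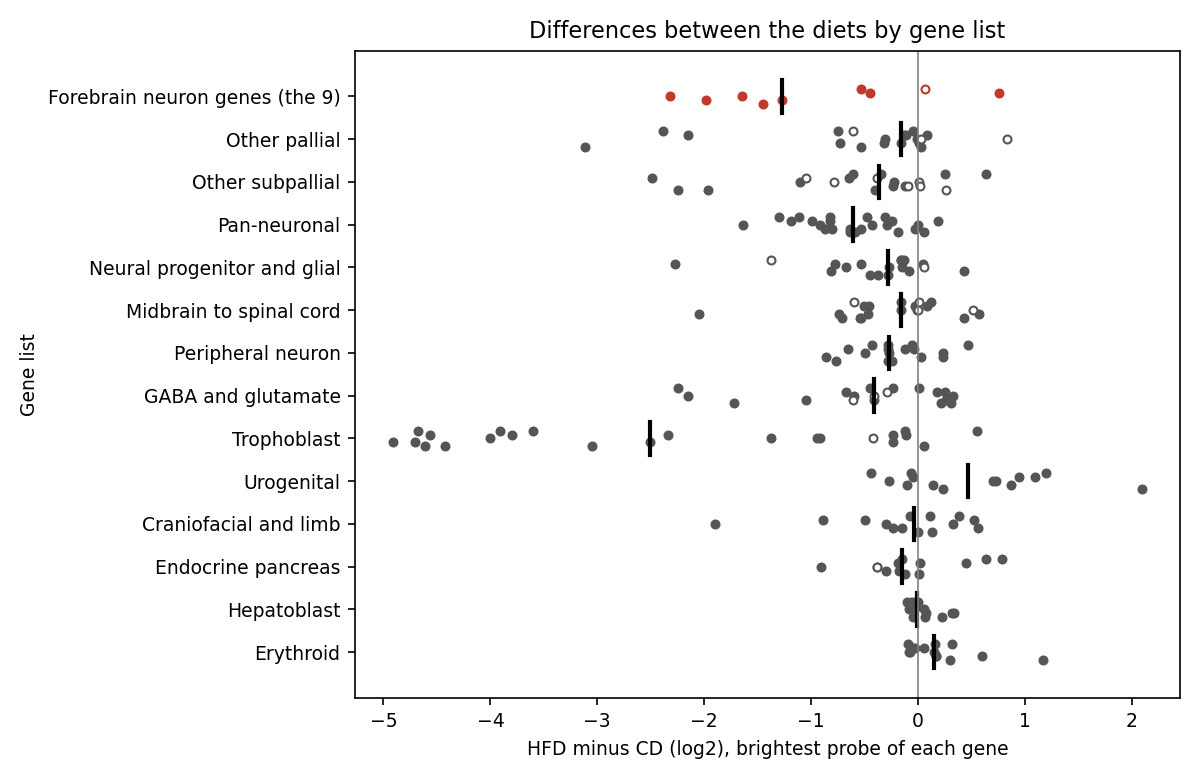
Difference between the diets (HFD minus CD, log2) for the brightest probe of each gene, by gene list, with the 9 forebrain neuron genes in red. Bars mark list medians, and open symbols are genes not well above background on any array. The median was -1.27 for the 9 genes, -0.61 for the pan-neuronal list, -2.51 for the trophoblast list, 0.47 for the urogenital list and -0.01 for the hepatoblast list.

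The array on which a gene was highest varied among the members. Of the 8 detected members, Tbr1, Neurod2, Neurog2 and Gad1 were highest on CD replicate 2, Dlx1, Dlx2 and Slc32a1 on CD replicate 1, and Emx2 on HFD replicate 2. Of the 24 pan-neuronal genes, 19 were highest on CD replicate 1 and 3 on CD replicate 2, and of 16 detected other pallial genes, 12 and 2. Over 18000 detected genes, 27.3% were highest on CD replicate 1 and 33.5% on CD replicate 2. Of the 5 members past the cutoffs, 4 were highest on CD replicate 2. These 5 had both HFD arrays below both CD arrays, so only a CD array could be their highest. Nothing is read from how they split between the CD arrays.

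Part of a list of trophoblast genes, which belong to the placenta, was also lower in HFD. Of 24 trophoblast genes 23 were measured and 20, 22, 18 and 15 were detected on CD replicate 1, CD replicate 2, HFD replicate 1 and HFD replicate 2. Their summed level, as a multiple of the 75th percentile, was 67.3 to 78.7 under CD and 48.6 to 51.3 under HFD. Gcm1, a syncytiotrophoblast factor, made up most of that sum on 3 arrays (50.2, 19.4, 43.3 and 48.5) and did not pass the cutoffs, with a difference of 0.55. Without Gcm1, a split made after its values were seen, the sum was 17.1 and 59.3 under CD and 5.30 and 2.79 under HFD. Of 19 tested, 10 passed for lower in HFD and none for higher, against 0.583% and 0.283% of all genes tested. The list median was -2.51, or -1.84 with undetected groups at their bounds. Tpbpa, a spongiotrophoblast gene, had levels of 3.01 and 4.80 under CD and 1.00 and -1.01 under HFD, and was detected on every array. Ascl2, Synb, Peg10, Rhox6 and Plac1, other trophoblast genes picked after their values were seen, differed by -0.24 to 0.06 and did not pass. Of the 22 detected trophoblast genes 18 were highest on CD replicate 2, as Tbr1, Neurod2, Neurog2 and Gad1 were, but so were 13 of 16 hepatoblast and 10 of 14 erythroid genes. Relative to each gene's mean, the trophoblast median was 0.52, 2.06, -0.92 and -1.59 on the 4 arrays in the order above, and that of the 9 members 0.40, 0.56, -0.82 and -0.44. Their part in the members' differences was not tested.

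The urogenital list ran the other way and is set beside Emx2, which is itself a urogenital gene. All 14 urogenital genes were tested, and 2 passed for higher in HFD, as 0.283% of all genes tested did. These were Cdh16 (2.10), a kidney cadherin gene, and Nr5a1 (1.20), a gonadal and adrenal factor, and the list median was 0.47. Cdh16 had levels of -1.57 and -3.24 under CD and -0.87 and 0.26 under HFD. Like Emx2, it was lowest on CD replicate 2 and highest on HFD replicate 2, an order that 6 of the 14 urogenital genes and 7.88% of all detected genes had. The summed level of the list was 13.3 and 8.43 under CD and 12.2 and 14.0 under HFD. Of 14 craniofacial and limb mesenchyme genes, with which Dlx1 and Dlx2 are shared in the embryo, none passed (median, -0.04). Both Dlx genes were highest on CD replicate 1, as were 9 of these 14, 8 of 13 detected other subpallial genes and 27.3% of all detected genes. None of the 11 tested endocrine pancreas genes passed (median, -0.15). The part of these tissues in the levels of Emx2, Dlx1 and Dlx2 was not tested.

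**Figure D4:**
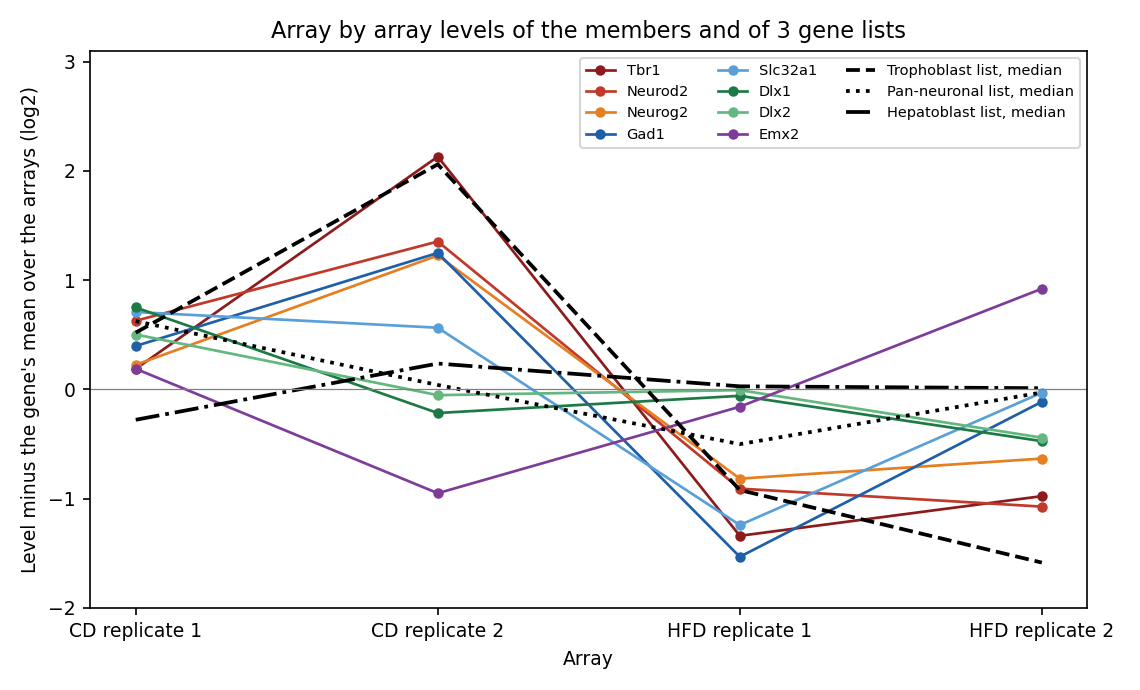
Level on each array minus the gene's mean over the 4 arrays (log2) for the 8 detected members (colored lines), with medians of 3 gene lists (black lines), where lines only join values of 1 gene or list. Tbr1, Neurod2, Neurog2 and Gad1 peak on CD replicate 2, as do the trophoblast median (2.06 there) and the hepatoblast median (0.24 there). The hepatoblast median stays between -0.28 and 0.24. The pan-neuronal median peaks on CD replicate 1 (0.62), and Emx2 is lowest on CD replicate 2.

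The genes whose array pattern came closest to the median of the members were sought among 16590 other genes detected on all 4 arrays, by the Euclidean distance between levels centered on each gene's mean. The median pattern of the 8 members was 0.45, 0.90, -0.86 and -0.46. The nearest genes were Mast1 (distance 0.32), Gprin1 (0.32), Prdm8 (0.35), Pappa2 (0.36) and Syn1 (0.40), followed by Jph3, Cplx1, H2-Oa, Smim18 and Fbln7 at up to 0.49. Mast1 codes for a microtubule-associated kinase, Gprin1 for a protein of growing neurites, and Syn1 and Cplx1 for synaptic vesicle proteins, while Pappa2 codes for a protease abundant in placenta and H2-Oa for an antigen presentation protein. All 10 were lower in HFD, by 0.90 (H2-Oa) to 1.46 (Cplx1) on the log2 scale, which their closeness to the pattern fixes. The members themselves lay at 0.44 (Neurog2), 0.71 (Slc32a1), 0.79 (Neurod2), 0.83 (Gad1), 1.28 (Dlx2), 1.40 (Dlx1), 1.45 (Tbr1) and 2.42 (Emx2) from that median.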

How the data were processed

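Gene expression was measured in 4 fetal liver samples, 2 per maternal diet, grouped and numbered as their labels say. The authors hybridized Cy3-labeled RNA to 1-color arrays on 1 slide, scanned it and, with Feature Extraction 11.0.1.1, deposited for each spot an intensity that was background-subtracted but not scaled between arrays. The deposited files also hold flags, as scores of 0 or 1, that mark outlier spots, saturated spots and spots well above background. A table of normalized signal was deposited as well, and in it each array's column was the intensity divided by 1 constant (within 0.1% for 100% of 41163 probes with 1 spot), with column medians of 0.276 to 0.305.

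From the intensities, log2 values were averaged over the spots of a probe without outlier flags (39 to 58 spots per array), and the 75th percentile was subtracted. As in the study's methods, probes were left out under the 20th percentile on any array (14980 probes) or with a CV of the log2 signal over 50% in both groups (2 probes). The other 41614 were compared in limma 3.58.1 (R 4.3.3), HFD minus CD with no covariates, and 219 were lower and 118 higher in HFD at an unadjusted p of 0.05 and 2-fold. Adjusted p-values are Benjamini-Hochberg. The fit was tested on simulated data. Transcripts were named through RefSeq (GRCm38.p6), which gave 32994 probes 1 symbol, and a gene was read from the probe with the highest mean level. Where 1 group was not well above background on either array and the other was on both, a fold is an approximate bound, taken against the higher of that probe's own level and the array's lowest level among detected probes. It is approximate because probes above that lowest level can be undetected, as Pax6 was at -6.17 on HFD replicate 1. Gad1, above that lowest level on both HFD arrays, has none. Differences in normalization, filter, test and arrays were tried. Tables were made with Python 3.11.15.

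The members and gene lists were chosen with earlier results of these data known. Named list genes were the 3 brightest of a list or up to 5 that passed the cutoffs, and genes nearest the members' pattern were the 10 with the smallest distance. Other names are marked as picked after their values were seen, and a few list genes are counted but not reported here by name.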

Additional observations from a re-analysis of the deposited data

How the results depend on the processing

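The 219 probes lower and 118 higher in HFD became 42 and 15 with normexp background correction, 63 and 19 with the floor, 56 and 41 with the methods' t-test at the same cutoffs (0 after Benjamini-Hochberg), 25 and 21 with Welch's correction, 479 and 376 without the filter on low values, and 98 and 50 genes when all probes of a gene were averaged. Requiring a group well above background on both arrays gave 72 higher. With 1 array left out the counts were 398 to 502 lower and 195 to 834 higher. The 5 members past the cutoffs became 0 with normexp, 1 (Neurod2) with the floor and with the methods' t-test, 0 with Welch's correction and 3 to 5 with 1 array left out. The median difference over all 9 members, -1.27, became -0.36 with normexp, -0.53 with the floor and -0.74 to -1.54 with 1 array left out. The 9 neural list genes that passed for lower became 3 with normexp, 4 with the floor, 0 with either t-test and 3 to 24 with 1 array left out, and those for higher 0 to 1. A lone array was assumed to vary like the other group. The replicate block gave 278 lower and 184 higher probes and the same 5 members. Same-numbered arrays' deviations from their group means correlated at -0.107, which gives no sign that the numbers pair the arrays but cannot exclude it. Crossed pairing, chosen after seeing the data, gave 272 and 186 with the same 5 members. Quantile normalization lost Gad1. No difference of a detected member changed sign under the alternatives, but those that changed only the filter, test or blocking could not move it. Of 18 alternatives, some with a lone array in a group, Neurod2 passed the cutoffs in 16, Tbr1 in 14, Neurog2 in 12, Slc32a1 in 11 and Gad1 in 10. Some alternatives, such as dropping the CV filter or using the deposited normalized signal, nearly repeated the main fit, so these counts are not independent evidence. The causes of the shifts under the alternatives were not tested. Under HFD, Tbr1 has only an approximate bound, and Emx1, Neurog2 and Gad1 have none.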
